A study of Mus musculus with 24 samples.

Results

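The dependence of the hippocampal response to electroconvulsive therapy (ECT) on the PLX diet was examined in 20 of the 24 libraries, those of the 4 groups of stressed mice. The tested quantity was the difference of differences, called the ECT-by-diet difference here: the log2 difference between ECT and sham on the PLX diet minus the same difference on the control diet. A negative value means that ECT minus sham was lower on the PLX diet. The groups were control diet with sham (n = 5), control diet with ECT (n = 6), PLX diet with sham (n = 5) and PLX diet with ECT (n = 4). All 4 held male wild-type C57BL/6 mice aged 4 to 8 months that went through chronic unpredictable stress, 5 weeks of changing stressors. The PLX diet carried PLX5562, which the labels describe as a kinase inhibitor of the CSF1 receptor, and feeding began 3 weeks before the stress, whereas the control diet lacked the compound. ECT was a shock through ear clips under light isoflurane anaesthesia, given 3 times a week for 2.5 weeks. The labels do not tie each library to its own mouse. What the p-values measure is therefore the spread between libraries, part of which may be technical.

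Microglia are the resident macrophages of the brain and need signals from the CSF1 receptor to survive. Repeated electroconvulsive seizures are known in rodents to drive activity-dependent transcription and the birth of neurons in the dentate gyrus. The contrast asks which of the changes after ECT depend on the PLX diet, under which microglial transcripts were low.

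The diet left few microglial transcripts in either treatment arm. P2ry12, a purinergic receptor of homeostatic microglia, had 645 ± 56.2 normalized read counts in control-diet sham libraries and 89.6 ± 21.2 in PLX sham libraries (mean ± SD). After ECT it had 568 ± 47.9 on the control diet and 85.6 ± 19.1 on the PLX diet. The PLX mean was 13.9% of the control-diet mean in sham libraries and 15.1% after ECT. The corresponding shares were 17.1% and 14.3% for Csf1r, the receptor that the compound targets, and 17.8% and 14.3% for Tmem119, a microglial surface protein. The summed level of the 33 microglia markers was 3351 to 5200 normalized read counts in PLX sham libraries and 3234 to 5086 in PLX ECT libraries, so a remnant was left in every library. In bulk tissue, fewer cells of a type and less RNA per cell cannot be told apart. On the control diet the microglia sum was 15477 to 18225 in sham and 13482 to 15790 in ECT libraries. The summed level of 9 border macrophage markers was also lower on the PLX diet. In sham libraries it was 244 to 318 on the control diet and 52 to 70.1 on the PLX diet. After ECT it was 199 to 329 and 31.5 to 51.8. The contrast cannot tell these cells, or the compound itself, from microglia.

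Reads assigned to genes numbered 14.97 to 20.12 M per library. Markers of dentate granule cells were present throughout, with Prox1, their defining transcription factor, at 725 to 1438 normalized read counts, so the hippocampal label was borne out by its markers. Markers of neighbouring tissue varied within every group. The summed level of 18 choroid plexus markers was 5345 to 75605 in control-diet sham, 5119 to 53726 in control-diet ECT, 5477 to 92500 in PLX sham and 7493 to 76426 in PLX ECT libraries. Its medians were 6350, 15643, 50912 and 7640 in the same order. The median was thus higher after ECT on the control diet and lower after ECT on the PLX diet. The summed level of 16 thalamic markers was 4484 to 13454, 3896 to 14995, 4317 to 8414 and 4497 to 7870 in the same order. That of 13 striatal markers was 4976 to 5271, 5102 to 6839, 5249 to 5807 and 5114 to 5631, and that of 13 neocortical markers 5657 to 7351, 6259 to 8521, 6067 to 9029 and 6100 to 7307. No marker of these lists was at 0 throughout a group. The ECT-by-diet difference was negative in 18 of 18 choroid plexus genes (median -1.74), 12 of 13 striatal genes (median -0.36), 11 of 13 neocortical genes (median -0.40) and 10 of 16 thalamic genes (median -0.24), none past the adjusted threshold. The alternative fits quoted below with tissue covariates, or without certain libraries, give the values beside these markers. Rn45s, a precursor of ribosomal RNA, took 2.9% of reads in PLX sham library 17 and 0.598 to 1.01% elsewhere.

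No gene passed the test of the ECT-by-diet difference. Of 15154 genes tested with limma on log2(value + 1), 0 had a Benjamini-Hochberg adjusted p below 0.05 (0%), and the smallest adjusted p was 0.566. At an unadjusted p below 0.05 there were 559 genes with a positive difference (3.69%) and 495 with a negative difference (3.27%), 1054 in all, where a mean of 758 is expected with no effect in any gene and independent libraries. The count was below that mean in 2 alternatives, 690 with the title letter as a random term and 523 without the 6 libraries rich in thalamic transcripts. edgeR, DESeq2 and limma-voom on reads recovered from the values also called 0 genes. The median difference over all genes was 0.00, and 50.3% were positive. The shares of 3.69% positive and 3.27% negative apply to every list count at an unadjusted p below 0.05 given below. A count of 1 in a list of 16 to 22 genes is near them. The lists were chosen with earlier results of these data known, so counts above these shares are no independent evidence. The unadjusted 95% interval of a gene reached a median of 0.25 to each side of its estimate, and 0.83 at the 90th percentile of genes. These widths take no account of the number of genes tested, and an adjusted call needs a larger difference. Rps6kb2, the gene with the smallest p, was not called at 0.36 although its SE of 0.07 was below the median SE of 0.12. ECT minus sham gave 0 adjusted calls within either diet (0% on the control diet, smallest adjusted p = 0.107, and 0% on the PLX diet, smallest adjusted p = 0.998). Unadjusted p-values below 0.05 were found for 1109 genes on the control diet (7.32%) and 384 on the PLX diet (2.53%). The PLX comparison had 9 libraries and the control-diet comparison 11, and the larger count on 1 diet does not show that the effects differ. These within-diet comparisons share no library, and across the 15154 genes their log2 differences had a Pearson correlation of -0.043, given as a description because genes are not independent replicates.

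**Figure D1:**
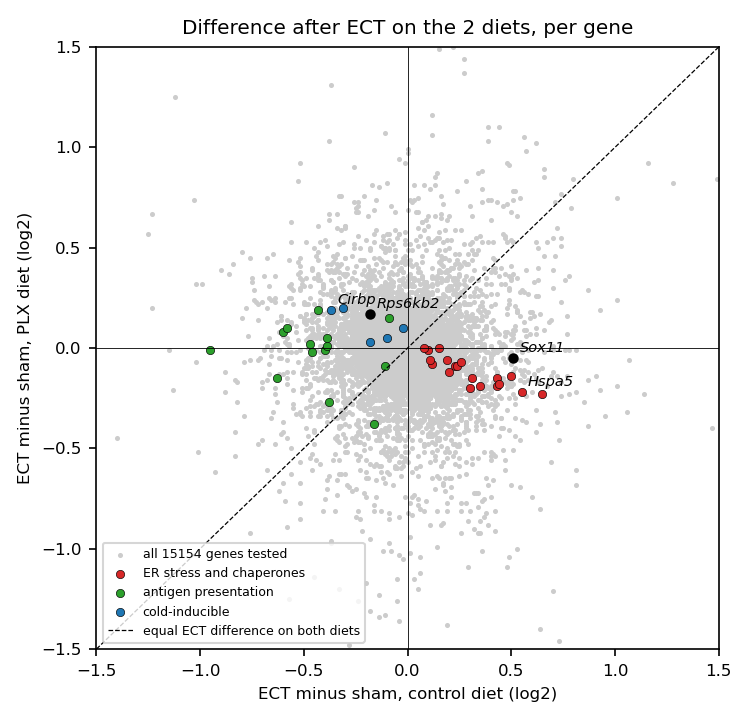
Log2 difference between ECT and sham on the control diet (horizontal axis) and on the PLX diet (vertical axis) for each gene tested, with the dashed line marking equal differences, coloured points the members of 3 gene lists and black points Sox11 and Rps6kb2. All 19 genes of the ER stress and chaperone list lie below the dashed line and the 5 cold-inducible genes above it; 19 genes lie outside the axes, which end at 1.5 in each direction.

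Genes that serve protein folding in the endoplasmic reticulum (ER) all had a negative difference, as did the choroid plexus markers given above. In background, chaperones of the ER fold secreted and membrane proteins, and their genes are raised by the unfolded protein response, in which the factors ATF6 and XBP1 bind an ER stress response element, CCAAT and CCACG separated by 9 bases. Of 19 listed and tested genes, 19 had a negative ECT-by-diet difference (median -0.33, from -0.88 to -0.08). None passed the adjusted threshold, and 15 had an unadjusted p below 0.05 against 3.27% of all genes in that direction. On the control diet ECT minus sham was positive in 19 of 19 (median 0.26), and on the PLX diet in 1 of 19 (median -0.12). The genes vary together from library to library, so these counts are not counts of independent observations. The list was also chosen with earlier results of these data known, so 15 against 3.27% is no independent evidence.

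The element was looked for in the promoters of these genes, because those that carry it are a subset with a known shared input. In RefSeq promoters of build GRCm38.p6, from 250 bases before to 50 bases after each start site, the letters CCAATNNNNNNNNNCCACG on either strand were found in 7 of the 16 list members with a promoter (43.8%) and in 37 of 27025 genes (0.137%). The same letters were found in 0 of 16 heat shock genes. The list was made by known function in the ER, so its share follows from that choice and is no result about these libraries. The upstream 250 bases of Hspa5 (chr2:34771840-34772089, plus strand) and 59 bases around the first match in the others are shown 5′ to 3′ on the strand of the gene, with the fixed letters of the element in capitals.
Hspa5: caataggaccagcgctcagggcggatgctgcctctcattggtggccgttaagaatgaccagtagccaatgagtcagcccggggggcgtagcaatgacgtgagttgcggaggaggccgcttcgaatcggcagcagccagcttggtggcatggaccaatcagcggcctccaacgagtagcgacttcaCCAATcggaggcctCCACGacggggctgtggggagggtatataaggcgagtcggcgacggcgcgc
Hsp90b1: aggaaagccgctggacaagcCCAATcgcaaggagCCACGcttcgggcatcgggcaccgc
Calr: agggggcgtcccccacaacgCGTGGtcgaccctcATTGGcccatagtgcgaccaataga
Canx: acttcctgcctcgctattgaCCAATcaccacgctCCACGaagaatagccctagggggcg
Pdia6: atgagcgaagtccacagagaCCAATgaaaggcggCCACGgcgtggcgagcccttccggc
Dnajc3: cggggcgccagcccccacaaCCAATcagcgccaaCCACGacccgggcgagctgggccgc
Creld2: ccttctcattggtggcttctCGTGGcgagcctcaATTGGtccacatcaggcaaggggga
The windows lie at chr10:86705618-86705676 (minus strand), chr8:84847055-84847113 (minus), chr11:50325780-50325838 (minus), chr12:17266471-17266529 (plus), chr14:118937807-118937865 (plus) and chr15:88819500-88819558 (plus). Calr and Creld2 hold the element in reverse orientation, CGTGG first, and Hsp90b1 has 2 matches, of which the first is shown. A match is a description of the letters and not of binding.

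Hspa5 codes for BiP, the main HSP70 chaperone of the ER (chromosome 2, 34772090 to 34776529). Its normalized read counts were 2887, 2817, 2832, 3347 and 3616 in control-diet sham libraries, and 3551 to 6379 with a median of 4126 in the 6 control-diet ECT libraries. PLX sham libraries had 5018, 4387, 2833, 2902 and 3509, and PLX ECT libraries 2762, 2672, 4676 and 2715. On the control diet the groups overlapped only in that the highest sham library exceeded the lowest ECT library, whereas on the PLX diet 3 of 4 ECT libraries were below every sham library and the other, library 14, was above 4 of 5. ECT minus sham was 0.55 on the control diet and -0.22 on the PLX diet, and the ECT-by-diet difference was -0.77 (SE 0.27, unadjusted 95% interval -1.35 to -0.20, adjusted p = 0.629 by limma). The 4 nonstressed libraries, which are outside the contrast, ranged from 3508 to 5023.

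Xbp1, the transcription factor named above, had the smallest p of the list. It was at 1193, 1136, 1139, 1196 and 1316 in control-diet sham and at 1233 to 1927 (median 1492) in control-diet ECT libraries. On the PLX diet it was at 1508, 1461, 1113, 1206 and 1168 after sham and 1030, 1100, 1381 and 1016 after ECT. The PLX ECT libraries other than library 14 were below all PLX sham libraries. The ECT-by-diet difference of Xbp1 was -0.54 (SE 0.16, interval -0.88 to -0.20, adjusted p = 0.617 by limma). Sdf2l1, a component of ER chaperone complexes, had the most negative value of the list, -0.88, with 157 ± 18.8 and 253 ± 72.4 on the control diet (sham, then ECT) and 191 ± 52.5 and 165 ± 62.2 on the PLX diet. Among the genes with the element, the differences were -0.62 for Pdia6, a disulfide isomerase, -0.62 for Creld2, -0.50 for Calr and -0.21 for Canx, lectin chaperones of the ER, -0.46 for Hsp90b1, the ER member of the HSP90 family, and -0.32 for Dnajc3, a co-chaperone of BiP. Dnajb11, a BiP co-chaperone without these letters in its window, had -0.33. Hyou1, an HSP70-like chaperone, had -0.33 and Manf, a secreted ER stress protein, -0.58. The 4 members with an unadjusted p of 0.05 or more were Atf4 (-0.16) and Ddit3 (-0.15), factors of the integrated stress response, Dnajb9 (-0.11) and Hspa13 (-0.08). Sdf2l1, Manf and the last 4, as well as Calr, Canx, Hsp90b1, Creld2 and Dnajc3, were singled out after their values were seen.

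**Figure D2:**
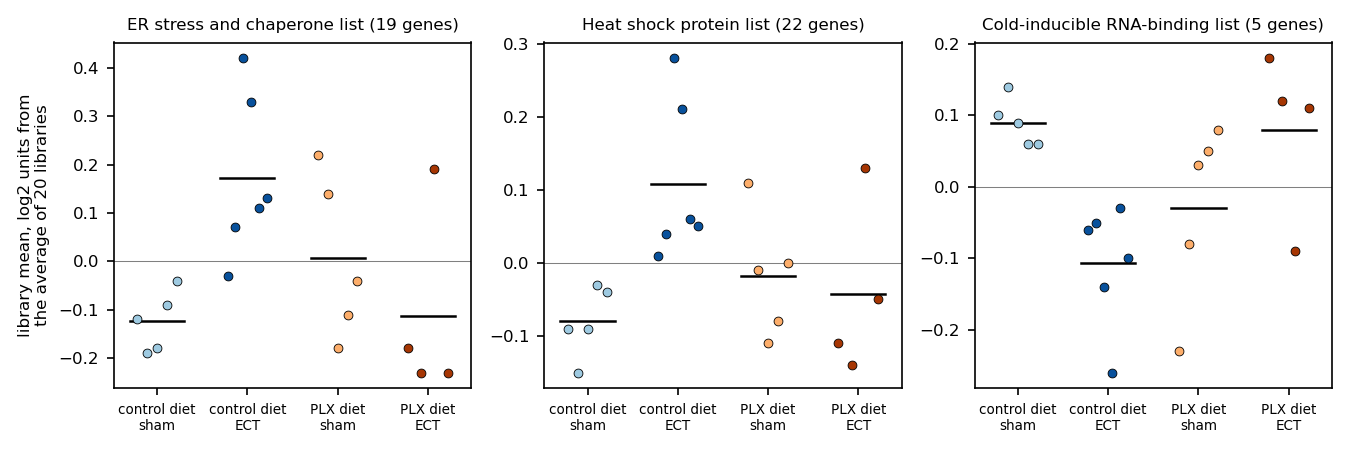
Mean log2 level of 3 gene lists in each library, centred on the average of the 20 libraries (points; horizontal bars are group means). Control-diet ECT libraries lie above all control-diet sham libraries in the left and middle panels and below all of them in the right panel, and library 14 of the PLX ECT group (0.19 in the left panel) stands apart from the other 3.

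Library means of the ER list were -0.19 to -0.04 in control-diet sham, -0.03 to 0.42 in control-diet ECT, -0.18 to 0.22 in PLX sham and -0.23 to 0.19 in PLX ECT libraries. The highest values were in control-diet ECT libraries 3 (0.42) and 4 (0.33), PLX sham library 17 (0.22) and PLX ECT library 14 (0.19). Libraries 3, 4 and 17 are also among the 6 libraries rich in thalamic transcripts (2, 3, 4, 11, 12 and 17). Of those 6, 3 were control-diet ECT libraries and each other group held 1. The fit without them therefore has fewer libraries, most of all in the control-diet ECT group. The pattern was measured again beside the tissue markers. With choroid plexus and thalamus list means as covariates 15 of 19 had an unadjusted p below 0.05 (median -0.36), with striatum and neocortex added 8 of 19 (median -0.35), and without the 6 libraries rich in thalamic transcripts 0 of 19 (median -0.26, all 19 negative). Leaving out any single library left 0 positive members and between 13 and 16 with an unadjusted p below 0.05.

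Cytosolic and mitochondrial heat shock proteins showed a smaller difference in the same direction. Heat shock proteins are chaperones that HSF1, the heat shock factor, induces under proteotoxic stress. Of 22 tested genes, 20 had a negative ECT-by-diet difference (median -0.19) and 0 passed the adjusted threshold. An unadjusted p below 0.05 was found for 9 of 22, against 3.27% of all genes in that direction. ECT minus sham was positive in 21 of 22 on the control diet (median 0.17) and in 8 of 22 on the PLX diet (median -0.03). Without the 6 libraries rich in thalamic transcripts the median was -0.09 and 1 gene had an unadjusted p below 0.05. With all 4 tissue covariates the median was -0.25, and 13 did.

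Hspd1, the mitochondrial chaperonin HSP60, had the smallest p. It was at 1992, 2015, 2029, 2106 and 2105 in control-diet sham and 2160 to 2416 (median 2255) in control-diet ECT libraries, which did not overlap. PLX sham libraries had 2338, 2309, 2328, 2124 and 2163, and PLX ECT libraries 2128, 2111, 2186 and 2214, which did overlap. Its ECT-by-diet difference was -0.21 (SE 0.05, interval -0.32 to -0.09, adjusted p = 0.617 by limma). Hsph1, an HSP110 chaperone, was at 4500 ± 184 and 5570 ± 358 on the control diet and at 4856 ± 343 and 4738 ± 812 on the PLX diet, a difference of -0.35. The values were -0.22 for Hspa8, the constitutive HSP70, -0.20 for Hsp90aa1, the inducible cytosolic HSP90, and -0.23 for Stip1, which links these chaperones. Hspb1, a small heat shock protein chosen after its values were seen, had -0.77 with an interval of -1.74 to 0.20. Hspd1 and Hspe1, which codes for its co-chaperonin HSP10, are transcribed in opposite directions from a shared promoter. Hspe1, also chosen after its values were seen, had -0.10 (interval -0.25 to 0.05), so the pair did not show equal values although the interval of Hspe1 overlaps that of Hspd1. The heat shock element GAANNTTCNNGAA, searched on both strands of the same promoter windows, was found in 4 of 16 heat shock genes with a promoter (25%), 0 of 16 ER genes and 179 of 27025 genes (0.662%). This share too follows from how the list was made. The stretch between Hspd1 and Hspe1 holds 2 overlapping matches, shown on the strand of Hspd1 (chr1:55088044-55088096, minus strand) with the fixed letters in capitals.
Hspd1: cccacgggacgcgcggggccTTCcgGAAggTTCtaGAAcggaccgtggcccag

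Cold-inducible RNA-binding proteins showed the opposite sign. Transcripts of Cirbp and Rbm3 are known to increase with mild cooling and to decrease with heat. All 5 tested genes of this list had a positive ECT-by-diet difference (median 0.21, 0 past the adjusted threshold), and 3 had an unadjusted p below 0.05 against 3.69% of all genes in that direction. Cirbp was at 808, 958, 860, 820 and 856 in control-diet sham and 513 to 810 (median 685) in control-diet ECT libraries. It was at 627, 779, 946, 829 and 786 in PLX sham and 1036, 960, 733 and 880 in PLX ECT libraries. On the control diet the groups overlapped by a single library of each, and on the PLX diet they overlapped more widely, with library 14 lowest after ECT and library 17 lowest after sham. These 2 libraries were the highest of their groups for Hspa5. The ECT-by-diet difference of Cirbp was 0.55 (SE 0.17, interval 0.20 to 0.90, adjusted p = 0.617 by limma) and that of Rbm3 0.52 (interval 0.17 to 0.87, adjusted p = 0.617 by limma). Srsf5, a splicing factor, had 0.21 and Sart3, a recycling factor of the spliceosome, 0.12. Without the libraries rich in thalamic transcripts 5 of 5 were positive, 0 had an unadjusted p below 0.05 and the median was 0.13. 

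Genes of newborn neurons had lower differences after ECT on the PLX diet than on the control diet in most members. Neurons born in the dentate gyrus pass through stages marked by SoxC factors, tubulins and doublecortin. Of 23 tested genes, 18 had a negative ECT-by-diet difference (median -0.22) and 0 passed the adjusted threshold. An unadjusted p below 0.05 was found for 3 of 23, against 3.27% of all genes in that direction. ECT minus sham was positive in 19 of 23 on the control diet (median 0.13) and in 7 of 23 on the PLX diet (median -0.05). Sox11, a SoxC transcription factor of immature neurons (chromosome 12, 27334268 to 27342718), was put on the list of fixed genes with earlier results of these libraries known, so its rank is no independent evidence. It had 274, 283, 276, 270 and 253 normalized read counts in control-diet sham and 334 to 464 (median 390) in control-diet ECT libraries, without overlap. In PLX sham libraries it had 310, 356, 271, 326 and 246, and in PLX ECT libraries 294, 284, 271 and 303, inside the sham range. The ECT-by-diet difference of Sox11 was -0.57 (SE 0.13, interval -0.83 to -0.30, adjusted p = 0.617 by limma), the smallest p among genes with a negative difference.

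Other markers of this stage varied in size. The most negative value of the list was that of Igfbpl1, singled out after its value was seen, at -1.05 with an interval of -2.27 to 0.17. Sox4, the related factor, was at 281 ± 18.4 and 326 ± 27.2 on the control diet and at 279 ± 23.5 and 271 ± 29.6 on the PLX diet, a difference of -0.26 (interval -0.49 to -0.03). Tubb3, a neuronal tubulin, had -0.25 and Dpysl3, a growth cone protein, -0.24. Dcx, doublecortin, the usual marker of newborn neurons, had -0.33 with an interval of -0.79 to 0.14, with 208, 340, 275 and 311 in PLX ECT libraries inside the range of 268 to 410 in PLX sham libraries but for the lowest, library 12, without which the difference was -0.19. Of 18 cell cycle genes, 11 were negative (median -0.15) and 1 had an unadjusted p below 0.05, Rrm2, a subunit of ribonucleotide reductase (-0.70, interval -1.34 to -0.06). Without control-diet sham library 9 the cell cycle median was -0.05. With all 4 tissue covariates the median of the neurogenesis list was -0.09, with 10 of 23 positive, and without libraries 4 and 6, rich in striatal transcripts, -0.15. Without the 6 libraries rich in thalamic transcripts it was -0.13, with 7 of 23 positive and 1 at an unadjusted p below 0.05.

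**Figure D3:**
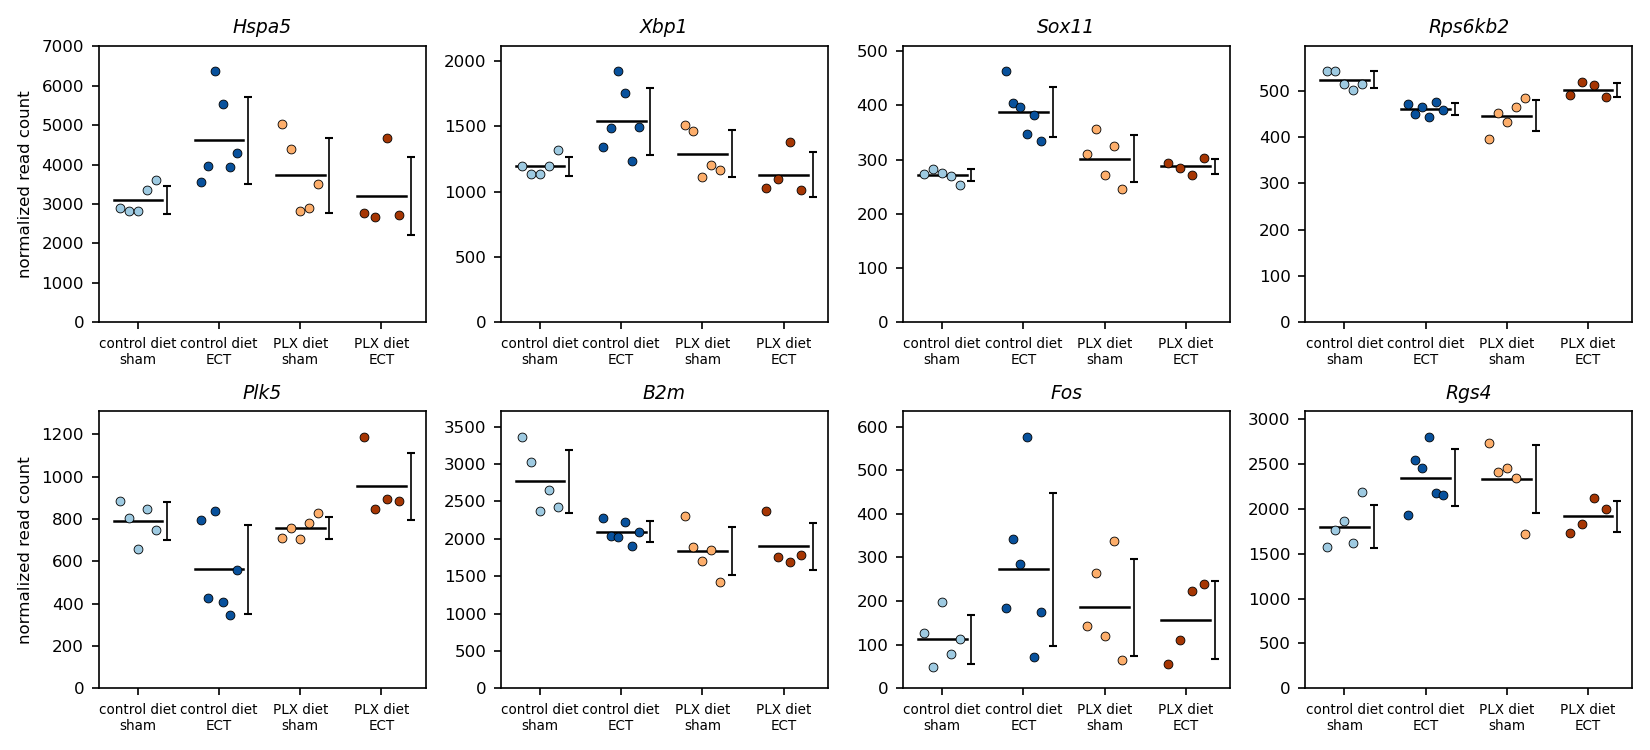
Normalized read counts of 8 genes in each of the 20 libraries (points), with the group mean (horizontal bar) and SD (vertical bar), on linear axes from 0. Rps6kb2 is the gene whose ECT and sham libraries separate on both diets in opposite directions, and for Sox11 they separate on the control diet and overlap on the PLX diet.

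Genes induced by neuronal activity were also mostly negative, with wide scatter between libraries. Immediate early genes code for transcription factors made within minutes of firing. Of 16 tested, 13 had a negative ECT-by-diet difference (median -0.35) and 0 passed the adjusted threshold. Only 1, Fosl2, had an unadjusted p below 0.05, near the share of 3.27% of all genes in that direction. Fos, the prototype, was at 126, 49.9, 197, 77.7 and 112 in control-diet sham libraries and at 70.9 to 577 (median 235) in control-diet ECT libraries. It was at 144, 264, 119, 337 and 64.2 in PLX sham and 55.0, 111, 222 and 240 in PLX ECT libraries. The groups overlapped on both diets, and the difference of -1.37 had an interval from -3.07 to 0.32. Fosl2, a FOS-related factor, had -0.60 (interval -1.04 to -0.16) and Egr1, a zinc finger factor, -0.61 (interval -1.26 to 0.05). Without the libraries rich in thalamic transcripts the median of the immediate early list was 0.02, with 9 of 16 positive, so its sign rests on those 6 libraries. With all 4 tissue covariates it was -0.12, and without control-diet ECT library 4 alone -0.20.

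Of 22 effector genes of activity, 17 were negative (median -0.13). Near the share of 3.27% of all genes in that direction, 1 had an unadjusted p below 0.05. That gene was Rgs2, a regulator of G protein signalling, at 484 ± 31.9 and 563 ± 48.4 on the control diet and 507 ± 49.7 and 480 ± 31.7 on the PLX diet (-0.29, interval -0.50 to -0.08). Arc, a synaptic capsid-like protein, had -0.65 (interval -1.68 to 0.38) and Homer1, a postsynaptic scaffold, -0.22. Bdnf, brain-derived neurotrophic factor, which ECT is known to induce in rodent hippocampus, was at 721 ± 48.1 and 828 ± 215 on the control diet and at 814 ± 77.5 and 889 ± 134 on the PLX diet. Its difference was -0.05 with an interval of -0.48 to 0.39. Ntrk2, the receptor of BDNF, had -0.16 and Vgf, a neurotrophin-induced peptide precursor, -0.32 (interval -0.62 to -0.02). Among seizure-responsive peptides, 8 of 19 were positive (median -0.08). Npy, neuropeptide Y, had -0.14 (interval -0.46 to 0.17), Pdyn, the dynorphin precursor, 0.48 (interval -0.01 to 0.96) and Npy2r, a receptor of neuropeptide Y, 0.40 (interval 0.01 to 0.78).

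Another G protein regulator, Rgs4, was among the top-ranked negative genes. It was at 1577, 1762, 1865, 1625 and 2192 in control-diet sham and 1929 to 2806 (median 2321) in control-diet ECT libraries. On the PLX diet it was at 2736, 2413, 2456, 2349 and 1716 after sham and 1728, 1836, 2119 and 2000 after ECT. The groups overlapped on each diet by the odd library, 11 in control-diet sham and 21 in PLX sham. The difference was -0.65 (SE 0.17, adjusted p = 0.617 by limma), and -0.78 with choroid plexus and thalamus covariates, where it was called (adjusted p = 0.0468). Per2, a repressor of the circadian clock, was at 859 ± 116 and 1045 ± 80.5 on the control diet and at 905 ± 71.6 and 796 ± 67.4 on the PLX diet, a difference of -0.48 (interval -0.72 to -0.23, adjusted p = 0.617 by limma). Of 17 clock genes, 12 were negative (median -0.08), and Per2 was the only 1 with an unadjusted p below 0.05. 

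Genes of mature dentate granule cells had positive differences in most members. Of 15 tested, 10 were positive (median 0.27) and 0 passed the adjusted threshold. Against 3.69% of all genes in that direction, 3 of 15 had an unadjusted p below 0.05. These were Plk5, a polo-like kinase, Il16, a cytokine precursor with a neuronal form, and Tdo2, tryptophan 2,3-dioxygenase. Plk5 was at 886, 803, 656, 846 and 749 in control-diet sham and 345 to 838 (median 493) in control-diet ECT libraries. It was at 711, 757, 706, 782 and 827 in PLX sham and 1188, 848, 895 and 886 in PLX ECT libraries. The PLX groups did not overlap, and on the control diet 4 of 6 ECT libraries were below all sham libraries. The ECT-by-diet difference of Plk5 was 0.88 (SE 0.28, interval 0.30 to 1.47, adjusted p = 0.617 by limma). Tdo2 had 0.52 and Il16 0.45. Ntf3, neurotrophin 3, which granule cells express, was at 159 ± 22.6 and 111 ± 35.3 on the control diet and at 182 ± 30.7 and 199.5 ± 35.0 on the PLX diet (0.70, interval 0.14 to 1.25).

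Some transcription factors and signalling genes had the same signs. Mafa, Nhlh1, Cyp26b1 and Sla2, like Plk5 and Ntf3 above, were fixed genes chosen with earlier results of these libraries known. Their shared sign is therefore no independent evidence. Mafa, a basic leucine zipper factor, was at 61.6, 56.1, 66.3, 55.0 and 35.7 in control-diet sham and 21.4 to 43.6 (median 35.2) in control-diet ECT libraries. It was at 35.6, 50.6, 57.3, 44.3 and 28.5 in PLX sham and 51.8, 57.7, 59.4 and 62.2 in PLX ECT libraries. The groups overlapped on each diet through a single sham library, 11 on the control diet and 19 on the PLX diet. The ECT-by-diet difference of Mafa was 1.21 (SE 0.30, interval 0.58 to 1.84, adjusted p = 0.617 by limma), and that of Nhlh1, a helix-loop-helix factor, 1.06 (interval 0.47 to 1.64). Wnt9a, a Wnt ligand, had 0.47, Cyp26b1, which degrades retinoic acid, 0.50 with an interval reaching -0.05, and Sla2, an adaptor of antigen receptor signalling, 1.04 at a level of 9.15 ± 2.55 to 20.4 ± 4.9. The granule list depended on libraries with striatal transcripts. Without control-diet ECT libraries 4 and 6, an alternative added after seeing the data, its median was 0.03 with 9 of 15 positive, and with all 4 tissue covariates it was 0.03 as well. Without library 4 alone it was 0.13. Libraries 4 and 6 had striatum list means of 0.77 and 0.78, against -0.46 to 0.25 in the other 18. Of 13 striatal genes 2 had an unadjusted p below 0.05, both negative, among them Drd1, the D1 dopamine receptor (-0.53). In the neocortex list 1 did, Rprm, a deep-layer marker (-0.70).

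Most antigen presentation and interferon genes had positive differences, with a median ECT minus sham below 0 on the control diet and near 0 on the PLX diet. Proteins of this group load peptides on MHC class I for display to T cells. Of 14 tested, 13 had a positive ECT-by-diet difference (median 0.45) and 0 passed the adjusted threshold. An unadjusted p below 0.05 was found for 3 of 14, against 3.69% of all genes in that direction. ECT minus sham was positive in 0 of 14 on the control diet (median -0.41) and in 7 of 14 on the PLX diet (median 0.00). B2m, which codes for the MHC class I light chain, was at 3365, 3023, 2365, 2658 and 2426 in control-diet sham and 1907 to 2282 (median 2062) in control-diet ECT libraries, without overlap. It was at 2309, 1884, 1701, 1856 and 1419 in PLX sham and 2368, 1758, 1685 and 1785 in PLX ECT libraries, and these overlapped. The difference was 0.45 (SE 0.17, interval 0.09 to 0.80, adjusted p = 0.661 by limma). H2-D1, a class I heavy chain whose reads could be shared with close copies, had 0.49, Psmb8, an immunoproteasome subunit, 0.61, and Tap1, a peptide transporter, 0.40. In PLX ECT library 12 each of these 4 genes was highest of its group. The same held in PLX sham library 17, whose list mean of 0.88 was the highest of the 20 libraries. With all 4 tissue covariates the median was 0.61 and 7 of 14 had an unadjusted p below 0.05, and without the thalamus-rich libraries, library 12 among them, 0.56 and 8 of 14. Without library 12 alone the median was 0.24, with Tap1 at 0.21, and without library 2 alone 1 of 14 had an unadjusted p below 0.05. Without library 17 alone the median was 0.60, and 8 of 14 did. edgeR gave a median of 0.35 with 11 of 14 positive.

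Interferon response genes were positive in 21 of 23 (median 0.37), with 0 past the adjusted threshold. At an unadjusted p below 0.05 there were 2 of 23, against 3.69% of all genes in that direction. Without library 12 the median was 0.12. The 2 genes were Xaf1 (0.50, interval 0.10 to 0.89), a pro-apoptotic interferon target, and Rsad2 (0.94, interval 0.12 to 1.76), the antiviral protein viperin. Rsad2 was at 86.1, 29.8, 42.6 and 29.9 in PLX ECT libraries and 25.5 to 37.5 in PLX sham libraries, with library 12 far above the other 3, and its difference was 0.60 without that library. Trim30a, a TRIM protein induced by interferon, had 0.82 with an interval of -0.14 to 1.77, and 0.42 without PLX sham library 21. On the control diet ECT minus sham was positive in 0 of 23 (median -0.29) and on the PLX diet in 16 of 23 (median 0.05). Cd274, the checkpoint ligand PD-L1, had 0.56 (interval 0.04 to 1.07), the only 1 of 8 checkpoint genes with an unadjusted p below 0.05.

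Microglial genes that the diet left were not distinguished as a list in the main fit. Of 33, 13 had a positive difference (median -0.04), 0 passed the adjusted threshold and 2 had an unadjusted p below 0.05, both negative. The median was -0.30 without library 12. Without the 6 libraries rich in thalamic transcripts, library 12 among them, it was -0.32, with 6 of 33 positive. Crybb1, a crystallin of microglia, was at 3.75, 6.57, 6.80, 4.12 and 8.15 in PLX sham and 0, 3.73, 3.96 and 0.83 in PLX ECT libraries, where a normalized count near 1 is 1 read. Its difference of -1.57 therefore rests on few reads. Cd53, a tetraspanin of leukocytes, had -0.53. P2ry12 had 0.12 (interval -0.28 to 0.52), Csf1r -0.23, Cx3cr1, the fractalkine receptor, -0.24 (interval -0.85 to 0.37), and Aif1, which codes for IBA1, 0.58 (SE 0.30) and 0.32 without library 12. When single libraries were left out, P2ry12 ran from 0.02 (without library 12) to 0.25, Csf1r from -0.38 to -0.08 (without library 19) and Cx3cr1 from -0.49 (without library 12) to -0.05 (without library 14). Tmem119 had -0.48, and from -0.79 (without library 12) to -0.06 (without library 14). Lag3, an inhibitory checkpoint receptor, was at 158 ± 36.8 and 86.2 ± 35.1 on the control diet and at 40.4 ± 11.1 and 26.8 ± 12.1 on the PLX diet. Its difference was 0.31 with an interval of -0.56 to 1.17, and 0.04 without library 12, so on the log2 scale a difference of ECT minus sham between the diets was not detectable. Csf2rb2, a subunit related to cytokine receptors, was at 68.0 ± 4.46 and 37.1 ± 8.5 on the control diet and at 48.5 ± 10.8 and 41.1 ± 7.76 on the PLX diet (0.66, interval 0.15 to 1.18, adjusted p = 0.661 by limma). Gfap, the astrocyte filament, had 0.09 (interval -0.40 to 0.58) with 10685 ± 1342 in PLX ECT libraries, against 8659 ± 794, 7799 ± 2806 and 6479 ± 680.5 in PLX sham, control-diet ECT and control-diet sham libraries.

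**Figure D4:**
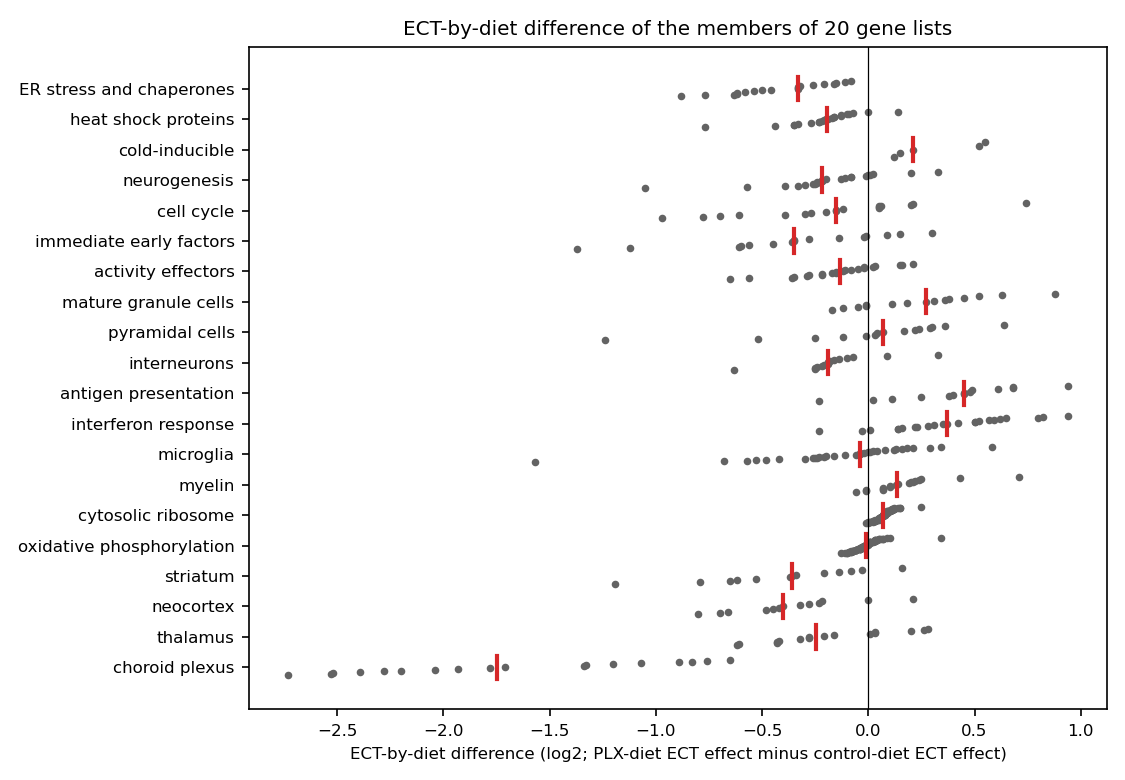
ECT-by-diet difference (log2) of each tested member of 20 gene lists (points), with the list median (red bar). Chaperone and heat shock genes lie mostly left of 0, antigen presentation and interferon genes mostly right, ribosome and oxidative phosphorylation genes close to 0, and choroid plexus genes furthest left.

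Single genes were ranked by p, since none passed. Rps6kb2, the S6 kinase 2 of the mTOR pathway (chromosome 19, 4156792 to 4163383), ranked first. It was at 543, 543, 514, 502 and 515 in control-diet sham libraries and 444 to 475 (median 462) in control-diet ECT libraries. In PLX sham libraries it was at 396, 451, 433, 465 and 483, and in PLX ECT libraries at 491, 518, 511 and 487. ECT libraries were all below sham on the control diet and all above sham on the PLX diet. It was the only gene of 15154 with this order (0.0066%), and 0 genes (0%) had the reverse order in both diets. The order comes from the same values as the rank of Rps6kb2 and adds no separate evidence. How many genes would show it with no effect was not computed. The ECT-by-diet difference was 0.36 (SE 0.07, interval 0.21 to 0.50, adjusted p = 0.566 by limma). With choroid plexus and thalamus covariates it was 0.41 and was called (adjusted p = 0.0468).

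Next by p among the positive genes was Slc16a11, a monocarboxylate transporter, at 379 ± 25.6 and 271 ± 34.7 on the control diet and 347 ± 44.8 and 375 ± 35.8 on the PLX diet (0.61, interval 0.33 to 0.89). Ppfia4, a liprin of synaptic scaffolds, had 0.34 and Map3k3, a kinase of MAPK signalling, 0.32. Pcdhb18, a clustered protocadherin whose reads could be shared with its neighbours, had 0.52. Bbc3, the pro-apoptotic protein PUMA, was at 199 ± 18.0 and 172 ± 19.1 on the control diet and 173 ± 21.6 and 218 ± 26.9 on the PLX diet (0.55, interval 0.25 to 0.85). Slc6a6, the taurine transporter, had 0.29, Plekhh2 0.50, Fam13a 0.33 and F730043M19Rik 0.48. All of these had an adjusted p of 0.617 by limma.

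On the negative side, Fzd3, a Wnt receptor of axon guidance, followed Sox11. It was at 1183, 1145, 1198, 1171 and 1157 in control-diet sham and 1224 to 1405 in control-diet ECT libraries, without overlap. PLX sham libraries had 1308, 1366, 1300, 1290 and 1226, and PLX ECT libraries 1225, 1211, 1222 and 1278, which overlapped by library 21 of the sham group and library 15 of the ECT group. The difference was -0.24 (interval -0.35 to -0.12). Wnt7a, a Wnt ligand, had -0.31. Cuta had -0.26, Rhbdl3, a rhomboid-like protein, -0.32, Ift22, a subunit of intraflagellar transport, -0.22, Rps6kc1, an S6 kinase-like protein, -0.25, and Abcf1, a translation factor of the ABC family, -0.19. Gm15645 had -0.50 and 1500004A13Rik -0.44. Reads of overlapping genes cannot be separated here, and of 94 genes checked, 15 overlap another gene of the table, among them B2m, Hspa5 and Map3k3.

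**Figure D5:**
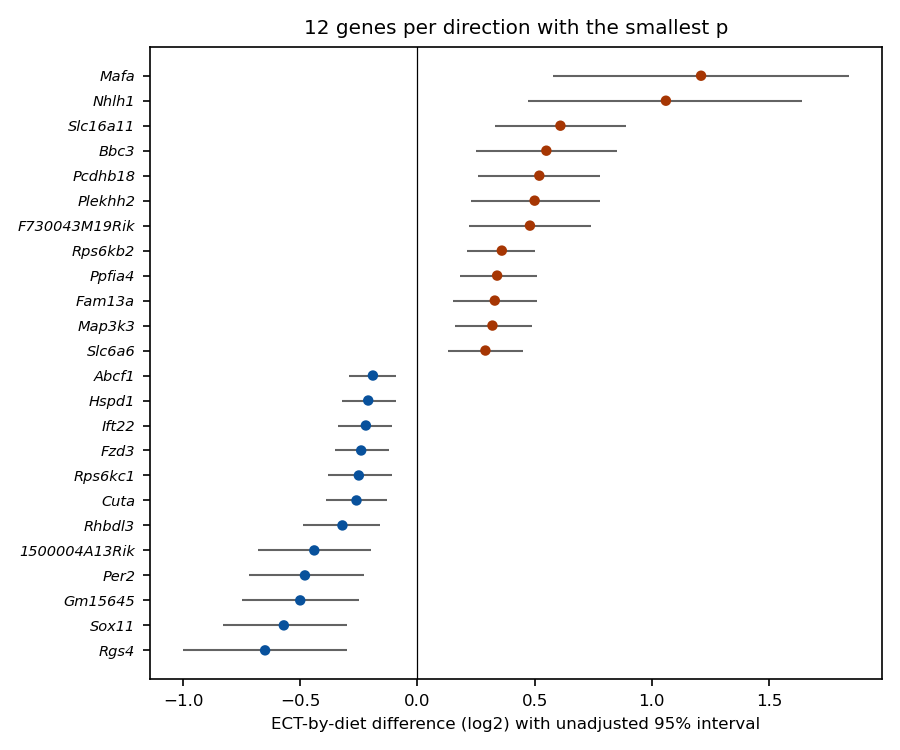
ECT-by-diet difference (log2) of the 12 genes per direction with the smallest p and a group mean of at least 20 normalized read counts (points, orange positive and blue negative), with unadjusted 95% intervals from limma. The genes were chosen by p, so their intervals exclude 0 by selection.

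Receptor, channel and housekeeping lists were examined in the same way. Oxidative phosphorylation genes had a median of -0.01 (27 of 73 positive) and cytosolic ribosome genes 0.07 (72 of 74 positive), with 0 and 3 at an unadjusted p below 0.05. Glutamate receptor genes had -0.02 (10 of 26), GABA-A receptor genes -0.01 (6 of 12), potassium and HCN channel genes -0.03 (9 of 21) and pyramidal cell markers 0.07 (10 of 15). Interneuron genes were negative in 14 of 16 (median -0.19), with 1 at an unadjusted p below 0.05, Vip, vasoactive intestinal peptide (-0.63, interval -1.22 to -0.03). Serotonin and catecholamine receptor genes were negative in 17 of 21 (median -0.21), with 2 at an unadjusted p below 0.05. These were Htr2c, a serotonin receptor (-0.69), and Drd1 (-0.53), which is also on the striatal list. Htr1a, the serotonin 1A receptor, had -0.26 with an interval of -0.57 to 0.06. Myelin genes were positive in 15 of 18 (median 0.14).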

How the data were processed

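Poly(A) RNA from hippocampus was sequenced. The deposited table gives a signal for each gene and library, which its headers call normalized counts and which equals reads scaled by a library size factor. The submitters' processing notes name DESeq2 1.6.3, HTSeq 0.6.1p1, TopHat2 2.0.10 and cutadapt, along with builds mm10 and hg19 in no stated role. Whether counting used strand was not stated. Values were whole multiples of a step, which gave whole reads for 100% of values (tolerance 0.001 reads), with size factors of 0.917 to 1.205 and 14.97 to 20.12 M reads per library.

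Groups came from the library titles. limma 3.58.1 in R 4.3.3 (trend and robust) was fitted to log2(value + 1) of the 20 libraries with 4 group means, for the 15154 of 23240 genes that reached 10 in 4 or more libraries, with Benjamini-Hochberg adjustment over all tested genes and a threshold of 0.05. The pseudocount of 1 understates differences of low genes. The scripts were tested on simulated data. Named genes were the 12 with the smallest p in each direction with a group mean of at least 20, up to 4 members per list, and a set of fixed genes, and others are identified. The 43 lists and the fixed genes were chosen with earlier results of these data known. Alternatives were edgeR 4.0.16, DESeq2 1.42.0 and limma-voom on recovered reads, edgeR with a surrogate variable (sva 3.50.0), other pseudocounts and filters, all 24 libraries, the title letter (of unknown meaning) as a random effect, tissue list means as covariates, and leaving out libraries. Each title letter occurred in a single group, with only G and H in PLX ECT, and the estimated correlation within letters was 0.198. The main fit treated libraries that share a letter as independent. No 2 libraries of a group were duplicates: over 41 pairs, chi-square divided by its degrees of freedom was 3.75 to 27.1. Coordinates and promoters are from RefSeq, GRCm38.p6, matched by symbol.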

Additional observations from a re-analysis of the deposited data

Results flagged for a closer look

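Of 376 sets of 1 gene in 1 group, 22 had a highest or lowest library far from the others (Dixon's criterion on the log2 scale), and chance gives about 1 in 20 sets. Library 14 of the PLX ECT group was far above the other 3 for Hspa5 (4676, next 2762), Hyou1 (1934, next 1573), Sdf2l1 (258, next 138), Hsp90b1 (6138, next 4237) and Dnajb11 (1093, next 836), and its mean over the ER stress and chaperone list (0.19) stood apart too. Library 12 of the same group was highest for Ttr (47339), Plk5 (1188), B2m (2368), H2-D1 (613) and Tap1 (146), lowest for Fosl2 (474), and had a choroid plexus list mean of 2.07. In the PLX sham group, library 19 was low for Ttr (1354) and the choroid plexus list (-1.55), library 18 high for Fosl2 (912), and library 21 low for Ntrk2 (7814) and Trim30a (11.2). Single values that stood apart elsewhere were Lag3 in library 10 (96.0), Npy2r in library 9 (756) and Gm15645 in library 7 (76.0) of control-diet sham, Sox4 (381) and Htr1a (515) in library 3 and Gfap in library 5 (13359) of control-diet ECT, and Bdnf in library 13 (688) of PLX ECT.

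Rps6kb2 had all ECT libraries below sham on the control diet and all above sham on the PLX diet. The test of the difference itself gave 0.36 on the log2 scale (unadjusted p = 3.73e-05, adjusted p = 0.566 by limma).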

How the results depend on the processing

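The count of genes with an adjusted ECT-by-diet difference was 0 in all alternatives run, leaving out each library included, except with choroid plexus and thalamus covariates, where it was 2 (Rps6kb2 and Rgs4). The count at an unadjusted p below 0.05 was 690 when the title letter entered as a random term and 523 without the 6 libraries rich in thalamic transcripts. ECT minus sham on the control diet gave 1 call with all 24 libraries, 2 with 4 tissue covariates, 4 without the libraries rich in striatal transcripts, and 0 to 4 when single libraries were left out (4 without library 6). Its unadjusted count was 701 without the thalamus-rich libraries. On the PLX diet single omissions gave 0 to 1 calls (1 without library 12). Its unadjusted count was 610 with no filter, 209 with the title letter, 850 and 744 with 2 and 4 tissue covariates, 670 with a surrogate variable, and 304 to 597 when single libraries were left out (highest without library 21).

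Without the thalamus-rich libraries the list medians were -0.09 for heat shock, 0.02 for immediate early and -0.32 for microglia genes, whose median ran from -0.30 (without library 12) to 0.04 over single omissions. With 4 tissue covariates they were 0.32 for cold-inducible, 0.03 for granule, -0.06 for choroid plexus (0.00 with 2 covariates) and -0.03 for neocortex genes. Without the striatum-rich libraries they were 0.03 for granule and -0.15 for neocortex genes. Among 94 genes under 15 alternatives, 4 of 1404 values changed sign: P2ry12 (-0.05), Lag3 (-0.05) and Gfap (-0.06) without the thalamus-rich libraries, and Gfap (-0.07) without the striatum-rich ones. Bdnf ran from -0.14 to 0.07 over single omissions. The causes were not tested. No paired analysis was run because the library titles give no pairing of libraries between groups. Depth limits genes with few reads, such as Crybb1 on the PLX diet.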

Other observations

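Glial and metabolic lists outside the comparisons above held single genes with an unadjusted p below 0.05 for the ECT-by-diet difference, none past the adjusted threshold. They were the members of their lists with the smallest p. Among oligodendrocyte lineage genes, Gpr17, a receptor of committed precursors, had -0.44 and Opalin, a protein of mature myelin, 0.71. Of 17 homeostatic astrocyte genes 13 were negative, with Fgfr3, a fibroblast growth factor receptor, at -0.27, and of 16 reactive astrocyte genes 10 were positive (median 0.13). Lpl, lipoprotein lipase, had 0.52 in the disease-associated microglia list, where 10 of 16 were positive. In the cholesterol synthesis list Idi1 (-0.20) and Cyp51 (-0.23), enzymes of the pathway, were negative and Abca1, a cholesterol exporter, positive (0.17). Cdkn1a, the cell cycle inhibitor p21, had -0.60 in the glucocorticoid list, whose median was -0.01.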
